A study of Mus musculus with 4 samples.

Results

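The genes described here are Hmgb1, Hmgb2, Hmgn1, Hmgn2, Hmga1, Ssrp1 and Supt16, and the peaks are those whose summit lies inside one of these genes. The 7 genes, out of 22028 protein-coding genes in GENCODE M21 (build GRCm38), held 49 of the 19866 peaks of 3 lists. Each list comes from an immunoprecipitate of an m6A reader, a protein that binds RNA carrying the methyl mark N6-methyladenosine. The IGF2BP2 list gave 15 of its 7069 peaks to these genes, the YTHDF2 list 10 of 2834 and the YTHDC1 list 24 of 9963. The genes were chosen by the position and pileup of their peaks in these same lists, so the counts, pileups and folds of their peaks are a description and carry no test.

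Each reader was precipitated once, with a Proteintech antibody against IGF2BP2, YTHDF2 or YTHDC1, from mouse bone marrow cells labelled LIC and lin-ckit+. A further library was the input, of which no file was used here. All of these cells were grown in IMDM with 10% fetal bovine serum, glutamine, IL-3, IL-6 and SCF, and RNA was crosslinked to protein with UV light of 254 nm. What LIC stands for, strain, genotype, age and the number of animals are not given in the labels. The peak lists hold no expression values, so the identity of the cells was not checked against markers. With 1 library per reader, differences between the lists could not be checked in replicates, and sequencing depth is unknown.

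High mobility group proteins are abundant non-histone proteins of chromatin. HMGB1 and HMGB2 bend DNA with a pair of HMG boxes and end in a long acidic tail, and HMGB1 also acts outside the cell as an alarm signal. HMGN1 and HMGN2 bind nucleosomes, and HMGA1 binds AT-rich DNA through AT hooks. SSRP1 and SPT16 (gene Supt16) form FACT, the complex that loosens and rebuilds nucleosomes in front of polymerases. SSRP1 carries an HMG box itself, whereas SPT16 does not and belongs here as its partner. Among the readers, IGF2BP2 is known to stabilise mRNA, YTHDF2 to speed its decay, and YTHDC1 to act in the nucleus.

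The sequences below are the spliced coding stretches around the coding summit with the highest fold over the 3 lists in the 4 members found in every list. That summit is an IGF2BP2 one in Hmgb1, Hmgb2 and Supt16 and a YTHDC1 one in Ssrp1. They are shown for their acidic codons, whose share differs widely between the coding summits of these genes (given below). Codons for the acidic residues aspartate and glutamate are in capitals. Sequences are those of the GENCODE M21 transcripts, 5′ to 3′ on the strand of the gene. The Hmgb1 stretch covers codons 178 to 210 of 215 (chr5:149048755-149048853, minus strand), and 26 of its 33 codons are acidic. The Hmgb2 stretch covers codons 183 to 210 of 210 (chr8:57514041-57514124, plus strand), with 24 acidic codons of 28. The Ssrp1 stretch covers codons 461 to 493 of 708, with 15 acidic codons of 33, and the Supt16 stretch codons 962 to 994 of 1047, with 15 of 33. The Ssrp1 and Supt16 stretches cross an intron each (genomic spans chr2:85042777-85042999, plus strand, and chr14:52162703-52163220, minus strand).
Hmgb1 tail: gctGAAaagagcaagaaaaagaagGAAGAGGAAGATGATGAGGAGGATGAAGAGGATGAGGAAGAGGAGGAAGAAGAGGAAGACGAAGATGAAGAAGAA
Hmgb2 tail: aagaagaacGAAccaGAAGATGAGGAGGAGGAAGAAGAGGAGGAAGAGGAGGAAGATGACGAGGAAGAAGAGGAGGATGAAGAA
Ssrp1: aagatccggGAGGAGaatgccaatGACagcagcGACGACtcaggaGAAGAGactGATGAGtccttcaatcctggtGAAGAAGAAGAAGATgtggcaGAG
Supt16: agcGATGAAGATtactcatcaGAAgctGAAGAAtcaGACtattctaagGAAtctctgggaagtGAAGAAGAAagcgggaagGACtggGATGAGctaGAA

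Hmgb1 carried the highest pileup among the 7 genes in each list, and it lay over the end of the coding sequence. Pileup is the number of fragments over the summit, and fold is the authors' ratio of that pileup to the local background. Over the acidic tail of Hmgb1, the last part of its coding sequence, the pileup was 111 in the IGF2BP2 list, 43 in the YTHDF2 list and 96 in the YTHDC1 list. The exact Poisson 95% intervals of these pileups, which cover counting error only, were 91.3 to 134, 31.1 to 57.9 and 77.8 to 117. The folds were 56.7, 24.8 and 41.9, and the −log10 q values 177, 54.3 and 135. By fold this placed the peak at rank 12 of the IGF2BP2 list, 27 of the YTHDF2 list and 61 of the YTHDC1 list.

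The Hmgb1 gene (ENSMUSG00000066551.12) lies on chromosome 5 at 149046702 to 149184489, minus strand. The tail peak spanned 149048689 to 149048988 in the IGF2BP2 list, 149048699 to 149048963 in the YTHDF2 list and 149048691 to 149048948 in the YTHDC1 list. The 3 summits lay within 8 bp of each other in exon 5 of 5, at codon 194, 194 and 196, and 65, 66 and 58 nt before the stop codon. The coding sequence ends in a run of 30 acidic codons, from 186 to 215, so each summit lay inside that run. A further IGF2BP2 peak, with a pileup of 18 and a fold of 15.3, had its summit at 149049721, in the coding sequence of a shorter annotated transcript and 6 bp outside an exon of the main transcript. YTHDC1 had weak intronic peaks with pileups of 5 and 3, whose summits were 32204 and 35526 bp from the nearest exon of the main transcript. The main transcript is the longest one with a complete coding sequence.

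Hmgb2, the close relative of Hmgb1 on chromosome 8 (57511907 to 57515999, plus strand), had its strongest peak at the matching place. Its tail peak had a pileup of 34 in the IGF2BP2 list (interval 23.5 to 47.5), 9 in the YTHDF2 list (4.12 to 17.1) and 35 in the YTHDC1 list (24.4 to 48.7). The folds were 21.7, 6.74 and 21.7. The summits lay between codons 199 and 203, inside a run of 23 acidic codons from 188 to the last codon, 210. All 3 summits fell within 11 bp. IGF2BP2 had weaker Hmgb2 peaks at codon 20 in exon 2, with a pileup of 10, and in an exon of another transcript, with a pileup of 5. YTHDC1 had an intronic one with a pileup of 6, whose summit was 143 bp from the gene start.

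The nucleosome-binding and AT-hook members had few and weak peaks. Hmgn1 had none in any list. Hmgn2 (chromosome 4, 133964738 to 133968650, minus strand) had 1 IGF2BP2 peak with a pileup of 5 and a fold of 5.76, no YTHDF2 peak, and 4 YTHDC1 peaks with pileups of 6 to 7. No Hmgn2 peak overlapped a peak of another list. One YTHDC1 summit lay in its main coding sequence, at codon 56 of 90. Hmga1 (chromosome 17, 27556497 to 27563674, plus strand) had no IGF2BP2 peak, 1 YTHDF2 peak and 4 YTHDC1 peaks. The YTHDF2 peak (pileup 7, fold 7.75) and a YTHDC1 peak (pileup 9, fold 9.47) overlapped, with summits 9 bp apart in an intron and within 10 bp of an exon. The highest YTHDC1 pileup in Hmga1, 10, lay in the 5' UTR, 42 nt before the start codon.

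The FACT genes were unequal. Ssrp1 (chromosome 2, 85037234 to 85047109, plus strand) had 2 IGF2BP2 peaks with pileups of 7 and 5, 1 YTHDF2 peak with a pileup of 2, and 4 YTHDC1 peaks with pileups of 4 to 10. Its strongest YTHDC1 peak (fold 8.28) lay in exon 11 at codon 477, and the stronger IGF2BP2 peak (fold 6.43) overlapped it with a summit at codon 459. Of the 33 codons around these summits, 45.5% for YTHDC1 and 39.4% for IGF2BP2 were acidic. A pair of IGF2BP2 and YTHDC1 peaks lay in the 3' UTR, with a pileup of 5 in each list. The YTHDF2 peak, with a fold of 2.96, overlapped a YTHDC1 peak in exon 15 that had a pileup of 7 and a fold of 7.82.

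Supt16 had the most peaks of the 7 genes, with 7 in the IGF2BP2 list, 6 in the YTHDF2 list and 7 in the YTHDC1 list. The gene lies on chromosome 14 (52160414 to 52197416, minus strand), and its 20 peaks fell on 8 places, 5 of which were in all 3 lists. Toward the end of the coding sequence, in exons 24 and 25 of 26, the IGF2BP2 pileups were 35 and 33, those of YTHDF2 19 and 15, and those of YTHDC1 25 and 17. Around exons 12 and 13 the IGF2BP2 pileups were 40 and 19 and the YTHDF2 pileups 19 and 10. YTHDC1 had a single peak there, with a pileup of 63 (interval 48.4 to 80.6) and a fold of 32.2, its highest in the gene. The IGF2BP2 summit of that place lay in exon 12 at codon 434, next to a run of 9 acidic codons from 435 to 443. The YTHDF2 and YTHDC1 summits lay in the intron next to it, 41 and 35 bp from the nearest exon. An intronic place next to exon 10 had pileups of 10 (IGF2BP2), 6 (YTHDF2) and 12 (YTHDC1), and a place at or near exon 23 had 7, 6 and 9. Next to exon 26, IGF2BP2 had an intronic peak of 10 and YTHDC1 one of 9. The YTHDC1 list alone had a peak in exon 1, with a pileup of 11, at codon 9.

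**Figure D1:**
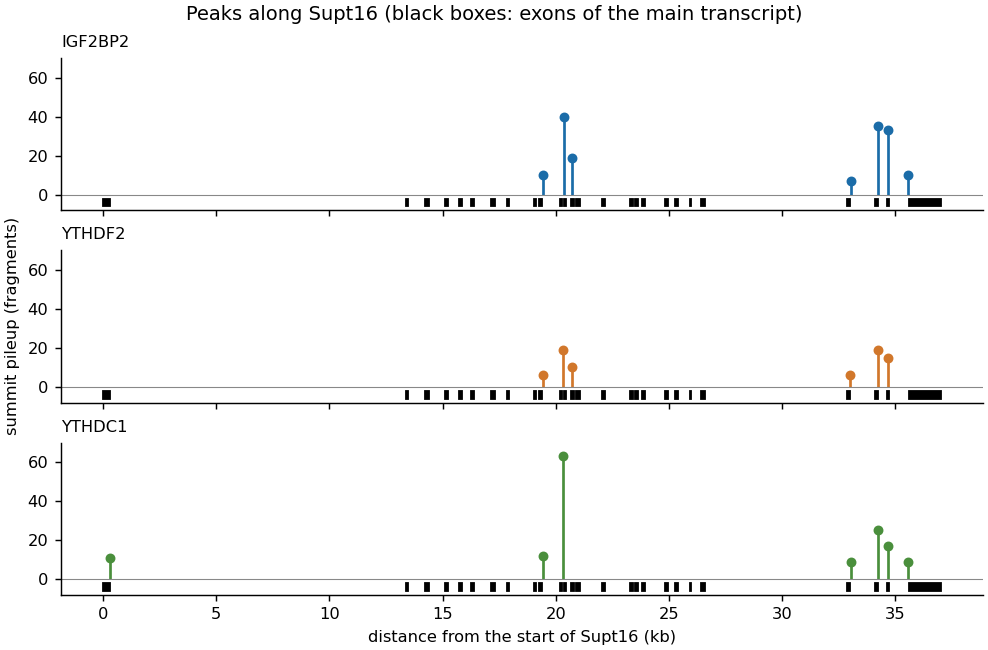
Summit pileup (fragments) of each Supt16 peak against its distance from the gene start in kb, 1 panel per reader, with exons of the main transcript as black boxes. The peaks stand in a group near exons 10 to 13 and another near exons 23 to 26, and the exon 1 peak with a pileup of 11 is in the YTHDC1 panel.

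Several neighbouring Supt16 peaks are close in the spliced mRNA. The summits in exons 24 and 25 were 438 bp apart in the genome but 19 nt apart in the transcript for IGF2BP2, 433 bp and 14 nt for YTHDF2, and 456 bp and 37 nt for YTHDC1. A fragment that crosses the splice junction can count at both places, so these peaks are not independent of each other. Of the 8 places, 3 with 8 summits also lie in an intron of Rpgrip1, a gene on the opposite strand. The lists give no strand, so reads of Supt16 and Rpgrip1 cannot be told apart there.

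**Figure D2:**
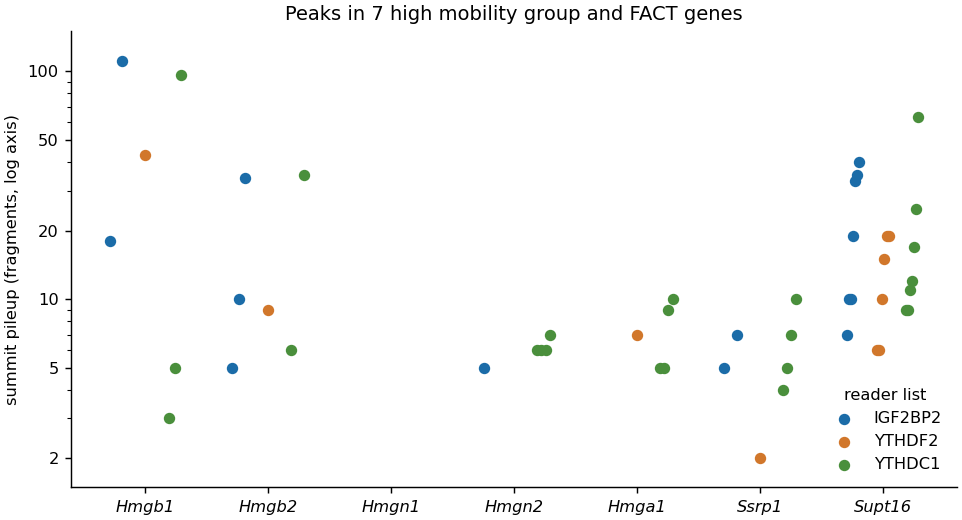
Summit pileup (fragments, log axis) of all 49 peaks by gene, with the IGF2BP2, YTHDF2 and YTHDC1 lists side by side. Each point is a peak. Hmgb1 reaches 111, 43 and 96, Supt16 40, 19 and 63, and Hmgn1 has no point.

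Of the 7 genes, 5 had a peak in the IGF2BP2 list, 5 in the YTHDF2 list and 6 in the YTHDC1 list. Of all protein-coding genes, 12.8%, 7.26% and 19.9% had a summit in these lists. Hmgb1, Hmgb2, Ssrp1 and Supt16 were in all 3 lists, as were 5.1% of all protein-coding genes. Ssrp1 was in the YTHDF2 list only through a peak with a pileup of 2. With summits in annotated exons counted alone, 5, 4 and 6 members had a peak, where the shares of all protein-coding genes were 9.62%, 5.72% and 13.1%. Since the members were chosen by these peaks, nothing is read from the difference. The median pileup of the members' peaks was 10 in the IGF2BP2 list, 9.5 in the YTHDF2 list and 8 in the YTHDC1 list, where the medians of the whole lists were 5, 5 and 6. Expression was not measured in the files used here, and its part in these pileups was not tested.

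The readers shared many of these places. In the IGF2BP2 list 11 of 15 member peaks (73.3%) overlapped a peak of another list, where 46.6% of the whole list did. All 10 member peaks of the YTHDF2 list did so, beside 78.6% of that list. In the YTHDC1 list it was 12 of 24 (50%), beside 31.1% of that list. The 49 peaks fell on 29 places, of which 7 were in all 3 lists, 6 in a pair of lists and 16 in a single list. Supt16 alone held 5 of those 7 places and 2 of those 6, so it weighs heavily on the overlap shares. Since the members were chosen by these peaks, nothing is read from the differences from the whole lists. At the 13 shared places the summits lay a median of 11 bp apart, with a range of 2 to 106 bp. The labels give 1 input for the 3 readers, so folds at a shared place are not independent of each other. At the Hmgb1 tail the background behind the fold was 69.5 times the lowest value of the list in each of the 3 lists. At the Hmgb2 tail it was 43.5, 43.5 and 34.8 times. At exon 12 of Supt16 it was 165 times for IGF2BP2, 43.5 for YTHDF2 and 52.1 for YTHDC1, so it was not equal at each shared place.

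By region, coding sequence (CDS) held 9 of the 15 member summits of IGF2BP2 (60%), 6 of the 10 of YTHDF2 (60%) and 9 of the 24 of YTHDC1 (37.5%). Of all summits in protein-coding genes, 51.7%, 51.7% and 29.9% were in CDS. Of the members' summits, 3, 3 and 11 were intronic. Most of those were close to exons, as 14 of the 17 intronic summits lay within 100 bp of an exon of the main transcript. That was 3 of 3 in both the IGF2BP2 and YTHDF2 lists and 8 of 11 in the YTHDC1 list, and over all intronic summits the shares were 48.0%, 42.4% and 16.1%. The 3 of IGF2BP2 were all in Supt16, and intronic places of Supt16 recur between lists, so these summits are not independent of each other.

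Many coding summits of these genes lay among acidic codons, the tails of Hmgb1 and Hmgb2 most of all. Among the 33 codons around a summit (fewer at the end of a coding sequence), the median share of acidic codons was 42.4% over 8 member summits in the IGF2BP2 list. It was 48.5% over 6 member summits of YTHDF2 and 45.5% over 9 of YTHDC1. Over all coding summits it was 21.2% (3710 summits), 21.2% (1509) and 18.2% (2900). The median share over the whole coding sequences behind those summits was 14.7%, 14.4% and 13.6%. At the Hmgb1 tail the share was 78.8%, 78.8% and 81.8%, and at the Hmgb2 tail 85.7%, 92.3% and 95.8%. Values at or above those of the Hmgb2 tail were found at 6, 1 and 2 coding summits of the 3 lists, itself included.

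In Supt16 the summits of exons 24 and 25 had acidic shares of 45.5% to 57.6% over the 3 lists. Not all member summits were of this kind. The exon 13 summits of Supt16 had 15.2%, the Hmgb2 summit at codon 20 had 12.1%, and the YTHDC1 summits in Hmgn2 (12.1%), in exon 4 of Ssrp1 (9.09%) and in exon 1 of Supt16 (12.0%) were lower than the medians of the lists. These summits had pileups of 4 to 19. Members share stretches of sequence between lists, so these windows are not independent of each other. Within each list the exon 24 and 25 windows of Supt16 overlap as well, since their summits are 14 to 37 nt apart in the transcript.

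**Figure D3:**
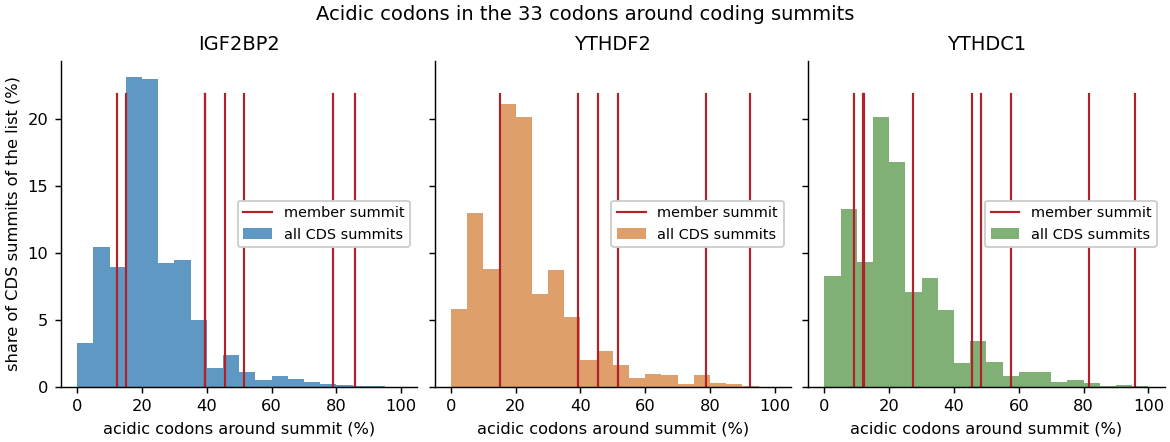
Share of acidic codons (%) in the 33 codons around coding summits, 1 panel per reader. Red lines are member summits, and bars give the share of all coding summits of that list in 5% bins. The tails of Hmgb1 and Hmgb2 stand at 78.8% to 95.8%, in the thin right end of the bars.

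The core of the m6A motif, GGAC, and its longer form GGACT, which contains it, were searched in the summit base and 50 nt on each side in the main transcript, on the strand of the gene. Neither was in the windows over the Hmgb1 or Hmgb2 tails, while GGAC was in the exon 24 and 25 windows of Supt16 in each list. GGAC was in 3 of 9 member windows of the IGF2BP2 list, 3 of 6 of the YTHDF2 list and 5 of 11 of the YTHDC1 list, where 42.6%, 41.5% and 42.2% of all summit windows in main transcripts held it. The exon 24 and 25 windows of Supt16 overlap in the spliced transcript but count as separate windows here. GGACT was in 1, 1 and 2 member windows, and in 10.8%, 11.8% and 12.1% of all. All 4 of those GGACT windows lay in exon 25 of Supt16 or exon 15 of Ssrp1. On the other strand (GTCC), 2, 2 and 3 member windows held the core, among them the Hmgb2 tail in each list, and 22.7%, 24.9% and 27.4% of all. A match or its lack describes the letters of the window and not whether the mark or a reader is there. The Hmgb1 tail windows were 91.1% A or G, where the median over all windows was 60.4%, 59.4% and 59.4%.

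Hmgb1 has many processed pseudogenes, copies of its mRNA set back into the genome, and peaks lay on a share of them. GENCODE M21 has 11 genes named with a member symbol and -ps, 10 of Hmgb1 and 1 of Hmgn2. Of these, 7 had a summit in some list, and each of the 7 was an Hmgb1 pseudogene: 6 in the IGF2BP2 list, 4 in the YTHDF2 list and 7 in the YTHDC1 list. Where the Hmgb1 gene had pileups of 111 (IGF2BP2), 43 (YTHDF2) and 96 (YTHDC1), Hmgb1-ps9, the highest of the pseudogenes with this name, had 58, 24 and 54. Hmgb1-ps1 had 44, 17 and 42, Hmgb1-ps8 35, 9 and 21, and Hmgb1-ps4 16, 6 and 16. Hmgb1-ps7 (21 and 33) and Hmgb1-ps2 (8 and 16) had peaks in the IGF2BP2 and YTHDC1 lists, and Hmgb1-ps6 had a YTHDC1 peak of 8. Hmgb1-ps3, Hmgb1-ps5, Hmgb1-ps11 and Hmgn2-ps1 had no summit in any list.

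These pseudogene peaks lay on the copy of the tail. The IGF2BP2 summit of Hmgb1 with 50 nt on each side (chr5:149048754-149048854, minus strand) is given first, and then the closest stretch of each of the 7 -ps pseudogenes with a peak, on the strand of its own gene, to show how far they differ. In the pseudogenes, capitals mark bases that differ from Hmgb1 or are inserted. Hmgb1-ps9 (chr13:101038616-101038716, minus strand) has 1 substitution and Hmgb1-ps7 (chr7:42021366-42021466, plus strand) has 2. Hmgb1-ps4 (chr19:6592607-6592707, minus strand) has 7 substitutions. Hmgb1-ps1 (chr11:41142296-41142396, plus strand) has 6 substitutions, 1 insertion and 1 deletion, and Hmgb1-ps8 (chr10:22262742-22262835, minus strand) has 5 substitutions and 7 deleted bases. Hmgb1-ps2 (chrX:146176472-146176566, plus strand) has 1 substitution and 6 deleted bases. Hmgb1-ps6 (chr16:31991253-31991337, minus strand), with the most edits of the 7, has 5 substitutions and 16 bases counted as deleted. The stretches of Hmgb1-ps1, Hmgb1-ps8 and Hmgb1-ps6 stop at the annotated end of the gene, and sequence past it was not read. For these, bases counted as deleted cannot be told apart from bases that lie past the annotation.
Hmgb1: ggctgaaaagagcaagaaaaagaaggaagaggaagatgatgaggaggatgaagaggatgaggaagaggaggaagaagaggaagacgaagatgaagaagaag
Hmgb1-ps9: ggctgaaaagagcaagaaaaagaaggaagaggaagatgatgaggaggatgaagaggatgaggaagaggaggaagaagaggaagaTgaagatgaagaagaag
Hmgb1-ps7: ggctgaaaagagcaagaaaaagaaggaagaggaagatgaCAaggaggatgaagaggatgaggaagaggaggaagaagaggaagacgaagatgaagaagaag
Hmgb1-ps4: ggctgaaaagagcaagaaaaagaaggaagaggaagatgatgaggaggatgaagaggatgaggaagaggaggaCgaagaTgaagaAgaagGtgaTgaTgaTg
Hmgb1-ps1: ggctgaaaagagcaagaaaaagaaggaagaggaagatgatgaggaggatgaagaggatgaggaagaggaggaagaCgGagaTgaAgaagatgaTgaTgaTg
Hmgb1-ps8: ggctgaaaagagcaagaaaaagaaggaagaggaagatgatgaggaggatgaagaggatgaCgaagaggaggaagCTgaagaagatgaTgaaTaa
Hmgb1-ps2: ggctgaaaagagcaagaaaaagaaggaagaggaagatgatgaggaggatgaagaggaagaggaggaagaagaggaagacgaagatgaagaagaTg
Hmgb1-ps6: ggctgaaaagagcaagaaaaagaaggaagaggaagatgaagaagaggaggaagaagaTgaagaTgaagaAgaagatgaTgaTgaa

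The -ps names cover a small part of the copies. Aligned to the Hmgb1 coding sequence, transcripts of 152 other annotated genes matched over at least 150 nt at 80% identity or more, and 150 of them are pseudogenes. Of the 152 copies, 27 (17.8%) were in the IGF2BP2 list, 12 (7.89%) in the YTHDF2 list and 31 (20.4%) in the YTHDC1 list. Of all 13525 annotated pseudogenes, 0.998%, 0.503% and 1.5% held a summit of these lists, and of all protein-coding genes 12.8%, 7.26% and 19.9% did. Together 34 had a peak in any list and 12 in all 3. All 70 of these copy summits aligned to codon 172 or later of Hmgb1, and 18 of the 27 IGF2BP2 summits lay in the run of acidic codons. So did 12 of 12 in the YTHDF2 list and 25 of 31 in the YTHDC1 list.

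**Figure D4:**
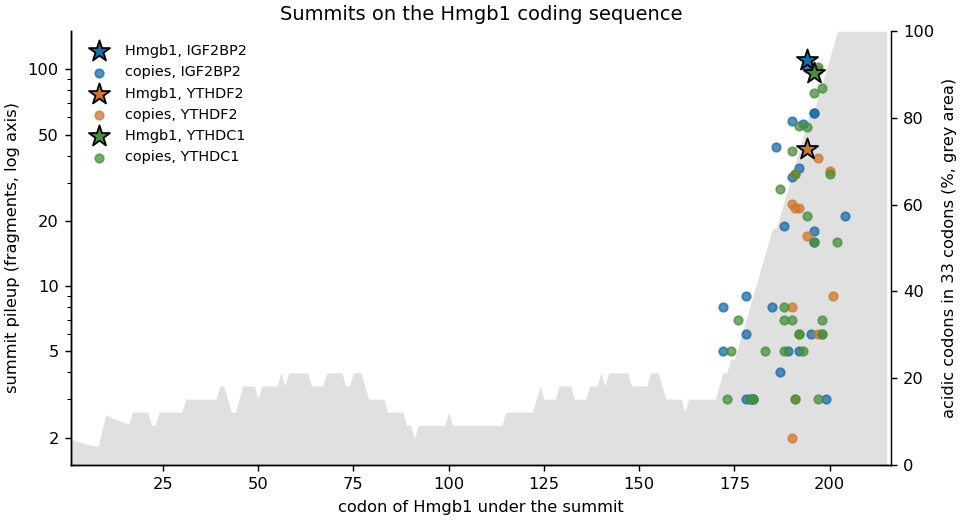
Summit pileup (fragments, log axis) against the Hmgb1 codon that the summit lies on or aligns to, for the Hmgb1 gene (stars) and its copies (points), coloured by reader. The grey area is the share of acidic codons in 33 codons of Hmgb1 (%). All points lie at codon 172 or later, where the grey area climbs.

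Among copies with the same tail sequence as Hmgb1, some had pileups inside the counting intervals of the gene and some did not. In Gm15387, Gm21596, AC135509.1 and Gm2710, named here after their values were seen, the window around the summit is identical to that of Hmgb1 printed above. Gm15387, on chromosome 15, had a pileup of 102 in the IGF2BP2 list, 33 in the YTHDF2 list and 103 in the YTHDC1 list. Gm21596, on chromosome 2, had 99, 39 and 99. The counting intervals of the Hmgb1 pileups hold these values in each list, and the 96 of Hmgb1 in the YTHDC1 list was lower than the 103 and 99 of these copies. AC135509.1 had 63, 34 and 82, and Gm2710 had 63, 23 and 78. The 63 of IGF2BP2 in both and the 23 of Gm2710 in the YTHDF2 list fell below the intervals of the gene.

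Copies were then grouped by how far their tail differs from that of Hmgb1. With 0 edits (substituted, inserted or deleted bases) in the window, 4 of 4 copies had a peak, and with 1 to 3 edits 7 of 7. With 4 to 10 edits 6 of 24 had one, and with over 10 edits 17 of 117. The median IGF2BP2 pileup among copies with a peak was 81, 19, 8 and 5 in these classes, and that of YTHDC1 was 90.5, 28, 11 and 5.5. For YTHDF2 the medians were 33.5, 23.5, 11.5 and 5.5 over 4, 2, 2 and 4 copies. Copies whose annotation ends before the tail count as having many edits, such as Hmgb1-ps5 with 40. Where the annotation ends inside the window, as it may in Hmgb1-ps6 with 21, bases past that end count as deleted. Of the copies counted as without a peak, 2 with 40 edits were overlapped by a peak whose summit lay outside their annotation, Gm10075 in all 3 lists and Hmgb1-ps5 in the YTHDC1 list. How copies came to hold or lack a peak was not tested.

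**Figure D5:**
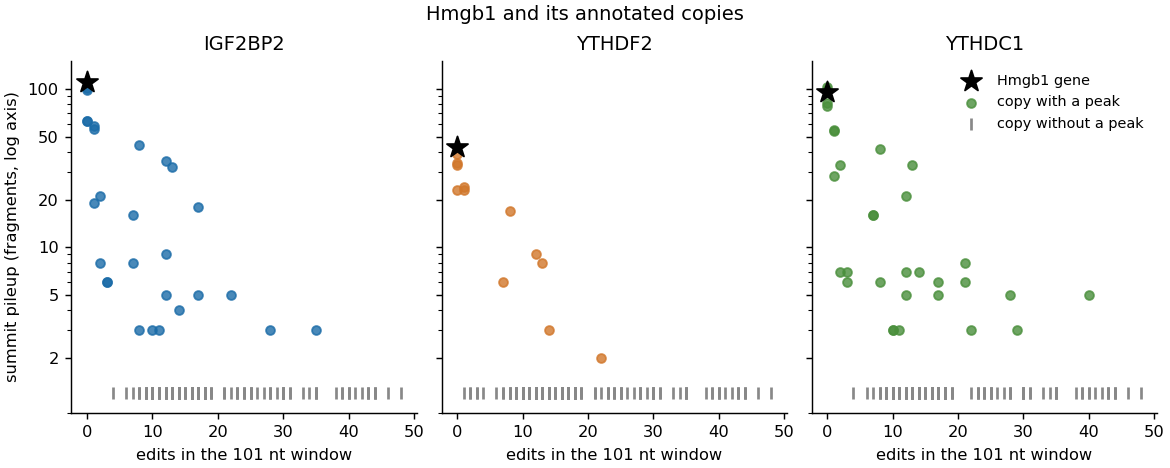
Summit pileup (fragments, log axis) against the number of edits in the tail window (50 nt on each side of the Hmgb1 summit), for the Hmgb1 gene (star), copies with a peak (points) and copies without one (grey ticks at the bottom), 1 panel per reader. For IGF2BP2 the gene stands at 111 and the copies with 0 edits at 63 to 102.

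How reads that fit several places were handled is not given in the sources used here. The peak lists cannot show whether fragments at a copy came from its own RNA or from Hmgb1 mRNA, and which of the 5 identical places a fragment came from cannot be told apart at this window. The gene itself had a pileup of 111 in the IGF2BP2 list, and its copies together 697. In the YTHDF2 list the gene had 43 and the copies 221, and in the YTHDC1 list the gene had 96 and the copies 755. The background in the IGF2BP2 list was 69.5 times its lowest value at Hmgb1, 78.2 times at Gm15387, 122 at Gm21596 and 86.9 at both AC135509.1 and Gm2710, so it was high at the identical copies too. Some copies lie inside other genes, whose bodies then also hold the summit. Hmgb1-ps7 lies in Vmn2r59, Hmgb1-ps8 in H60b, Raet1e and Gm26740, and Hmgb1-ps6 in Senp5.

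The Hmgb2 tail windows had 0 copies at 90% identity over at least 90% of the window. Their summits lay 34, 30 and 23 nt before the stop codon, so the windows run past it. A copy annotated only to the stop codon cannot cover 90% of such a window, so this 0 does not show that the tail lacks copies. Gm4739 matched bases 1 to 633 of the Hmgb2 coding sequence, its whole length, at 99.7% identity, and Gm13237 did so at 98.7%. Of 17 Hmgb2 copies 3 had a peak, with pileups of 3 to 5, which are Gm4739, Gm13160 and Gm13237, named after their values were seen. The Hmgb2 window at codon 20 had 4 copies at 95% identity, 2 of them identical, so the pileup of 10 there is uncertain. Of 30 Hmgn2 copies 2 had a YTHDC1 peak, with pileups of 4 (Gm10282) and 3 (Gm9525), both named after their values were seen, and the Hmgn2 window at codon 56 had 11 copies at 95% identity. Hmgn1 had 11 copies and no peak in any of them. Hmga1 had 1 copy, the gene Hmga1b, whose transcript matched 100% of the coding sequence and which had no peak. Ssrp1 and Supt16 had no annotated copy.

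Genes most like Hmgb1 were sought by the fold of the strongest exonic peak in the 3 lists, as the smallest distance on the log2 scale among 828 other genes with an exonic peak in each list. The nearest was Cdk11b, a kinase gene, at a distance of 0.15 and with folds of 59.7, 22.8 and 40.4. Next came the chaperone gene Hsp90aa1 (distance 0.34), the gene of the reader Ythdc1 itself (0.43), the translation initiation factor gene Eif3a (0.48) and the myosin gene Myh9 (0.53). The likeness rests on 3 values per gene. At the IGF2BP2 summit the acidic share was 66.7% in Cdk11b, 60.6% in Hsp90aa1 and 87.9% in Ythdc1, but 42.4% in Eif3a and 24.2% in Myh9.

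Of 25 other genes with an HMG box or of the same families, 6 were in the IGF2BP2 list, 2 in the YTHDF2 list and 6 in the YTHDC1 list. Ubtf, an HMG-box factor of ribosomal RNA transcription, had folds of 42.8, 24.6 and 29.2, and the nucleosome-binding gene Hmgn5 had 18.1, 7.70 and 21.6. Hmgb3, which also encodes an acidic tail and was named after its values were seen, had a YTHDC1 peak with a pileup of 19 and an acidic share of 66.7%, and no peak in the other lists. Of 23 histone chaperones and elongation factors that work beside FACT, 17, 16 and 18 had a peak. By the highest fold in any of the 3 lists, the top 3 were the elongation factor gene Supt5 (31.2, 13.7 and 31.1), the chaperone gene Chaf1a (11.8, 10.2 and 30.3) and Anp32a (23.0, 13.2 and 26.1), whose protein ends in an acidic stretch.

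Of 7 linker histones 1, 3 and 5 had a peak, and only Hist1h1d was in all 3 lists, with folds of 11.3, 6.87 and 8.48. Of 8 genes for receptors of HMGB1 outside the cell 1, 0 and 2 had a peak, all with a pileup of 5 or less (Havcr2, Ager and Cxcr4, named after their values were seen). These counts stand beside the 12.8%, 7.26% and 19.9% of all protein-coding genes given above.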

How the data were processed

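Immunoprecipitated RNA of each reader was sequenced in 1 library. The members and lists were chosen with earlier results of these data known. The submitters' processing notes list HISAT2, Trim Galore, bcl2fastq 2.17 and build GRCm38. The peak caller is not given in the sources used here. The deposited lists give the pileup signal at the summit and its fold (ratio) over local background, per the file headers. They also hold the −log10 of p and q, and a score that follows −log10 q, as the authors deposited them. UV energy was 120 mJ per cm2 in 3 exposures, and libraries were amplified for 20 cycles, per the labels.

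Summits were assigned to GENCODE M21 gene bodies, and an untranslated region took precedence over CDS, CDS over other exons and these over introns. Peaks overlapping by at least 1 bp were called shared. The background of a fold was taken as (pileup + 1) divided by fold, minus 1, assuming a pseudocount of 1. Windows were read from the spliced main transcript, because no genome sequence was used, so copies outside annotated transcripts were not analysed here. Copies were found with BLAST+ 2.17.0 and edits counted with edlib. The assignment and the edit counts were tested on simulated data. Exact Poisson 95% intervals cover counting error only, and fragments are not independent molecules. Named are the 7 members with their strongest peak in each list, up to 3 genes per further list that are in all lists, the 5 genes most like Hmgb1 and the pseudogenes with a peak. No test was made, since each reader has 1 library. Alternatives were filters on −log10 q, fold and pileup, equal list length, other assignment, overlap and region rules, and other windows and identities. Another was the principal transcript of the APPRIS annotation, which was the main transcript in all 7 members, so that alternative could not differ.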

Additional observations from a re-analysis of the deposited data

How the results depend on the processing

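Of 96 alternative values 83 stayed within 1.5 times the value of the main setting, or for acidic shares within its interval, and 13 did not. The acidic share compared here pools the codons of all member coding windows of a list and is not the median given above. Pooled, the IGF2BP2 list had 45.2%, the YTHDF2 list 52.4% and the YTHDC1 list 42.5%. Stability of the medians was not tested. Member windows are not independent of each other, so staying within that interval, which is not given here, shows little. With each list cut to its top 2834 peaks by −log10 q, 10 YTHDC1 peaks in member genes were left in place of 24, with 5 in CDS in place of 9, and 3 members in place of 5 had an IGF2BP2 peak. With summits in annotated exons, 13 YTHDC1 peaks counted. Among the values that stayed, a −log10 q, fold or pileup of at least 5 left 4 members in place of 5 with a YTHDF2 peak, without Ssrp1. In windows of 51 bp GGAC was in 0 member windows for IGF2BP2 and 1 for YTHDF2, and with 100 nt on each side in 6 for IGF2BP2. For the Hmgb1 tail window, 13, 14 and 12 copies at 95% identity (IGF2BP2, YTHDF2 and YTHDC1) became 40, 43 and 29 at 90%, and 152 by the alignment of coding sequence, which was added after the data were seen. These alternatives differ from the main setting in the peaks kept, the window length, the identity or the sequence aligned. The cause of the changes was not tested. Leaving out the Supt16 places in Rpgrip1, or the tail places of Hmgb1 and Hmgb2, was also added later. No paired analysis was possible because each reader has 1 library and no test was made. Many pileups are under 10, and their counting intervals are wide.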
